A study of Mus musculus with 237 samples.

Results

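The classical cadherins and their catenins are 8 of the 55335 genes in the count table: the cadherins Cdh1, Cdh3, Cdh2 and Cdh11 and the catenins Ctnna1, Ctnna2, Ctnnb1 and Ctnnd1. They were chosen by name, and each was found by the Ensembl identifier of its symbol. The question asked of them was which cadherin a skin cell of each epithelial or mesenchymal state carries, and whether a cell carries more than 1. All 8 had counts, from Ctnna1 and Ctnnb1 with a count in each of 237 columns down to Cdh2 with a count in 49.

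The cells come from the skin of 10 mouse embryos of C57BL/6N background at E14.5, carried by ICR surrogate mothers. Of these, 3 embryos were WT, and 7 were p63 KO, edited as zygotes with CRISPR-Cas9 in Trp63, the gene of a transcription factor that the stratified epidermis depends on. WT epidermis was lifted with dispase before trypsin, whereas p63 KO fetuses went into trypsin directly, and single cells negative for PI, CD45, TER119 and CD140a were sorted. Each was made into a SMART-Seq HT library, and the methods describe a qPCR screen for libraries with Krt5 (WT) or Krt8 (p63 KO) and without Pdgfra, which many sequenced columns do not match.

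Each column of the count table is the library of 1 cell, 66 of them WT and 171 p63 KO by the labels. Only 16 columns, all of the WT embryo WT01, could be paired with a labelled cell, so for the other 221 columns genotype, embryo and annotated cell type cannot be told apart from the state described here. Values are CPM, the rounded count per 1000000 counts of the column, and a column is said to carry a gene at 10 CPM or more. Only RNA was counted, and a protein name used for a column stands for the RNA of its gene. Column totals ran from 2702464 to 19197937 counts. Intervals are 95% exact Poisson intervals for summed counts and 95% exact Clopper-Pearson intervals for shares of columns. They cover counting error only, because these reads have no molecular identifiers and the columns are 1 pool without replicates, and no test was run on them.

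Cadherins are membrane proteins that bind the same kind of cadherin on the neighbouring cell and so hold cells together at adherens junctions. Inside the cell, p120-catenin and beta-catenin bind the cadherin tail, and alpha-catenin links beta-catenin to actin. Epithelia are known for E-cadherin, the basal epidermis also for P-cadherin, and mesenchymal and neural cells for N-cadherin and cadherin-11.

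States were set by keratin and collagen levels, and these genes are therefore no finding. Columns were called basal with Krt5 and Krt14 at 300 CPM or more and Krt8 under 100, simple with Krt8 and Krt18 at 100 or more and Krt5 and Krt14 under 100, and mesenchymal with Col1a1 and Col3a1 at 100 or more. This gave 54 basal, 66 simple and 79 mesenchymal columns, with 39 in no state. In 1 column both the simple and the mesenchymal rule were met, and no column met the basal and the mesenchymal rule. Median totals were 7822730 counts in basal, 7277220 in simple and 6094430 in mesenchymal columns. The median number of genes with a count was 11892.5 in basal, 9759 in simple and 10881 in mesenchymal columns. Its part in the shares of columns carrying a gene was not tested. With every limit doubled the states held 54, 72 and 75 columns, and with every limit halved 53, 61 and 86.

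Other markers were read beside the rules. Epcam, an epithelial adhesion protein, was carried by 54 of 54 basal, 64 of 66 simple and 3 of 79 mesenchymal columns. Trp63, the edited gene, was carried by 54 of 54 basal columns (median 498 CPM), 49 of 66 simple columns (median 80.7 CPM) and 2 of 79 mesenchymal columns (median 0). Pdgfra, which encodes the CD140a that the sort selected against, was carried by 66 of 79 mesenchymal columns (median 256 CPM), and Krt8 by 1 of 79. Of 7 fibroblast markers, 7 reached 10 CPM in the sum of the mesenchymal columns (68024 CPM together, Col3a1 the most abundant), 4 in the simple (1497 CPM, Dcn the most abundant) and 1 in the basal (701 CPM, Dcn), where Twist2 was at 0. The list holds Col1a1 and Col3a1, which the mesenchymal rule used, so its mesenchymal sum is in part set by the rule. Simple columns overlapped the collagen range: Col3a1 was at 100 CPM or more in 33 of 66, although Col1a1 was in only 1. The immune markers Ptprc, Cd207 and Tyrobp were at 0 in the basal and mesenchymal columns, and their sum was 0.109 CPM in the simple columns.

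The columns also fall into 3 kinds by the share of their nonzero values that are not whole numbers, a split chosen after the values were seen. This share was 11.1% to 19.9% in 82 columns, 22.5% to 25.8% in 88 and 27.4% to 33.7% in 67. The kinds followed the states: the low kind held 15 basal, 45 simple and 1 mesenchymal column, the middle kind 0, 6 and 78, and the high kind 39, 15 and 0, among them the 16 paired cells. The genes Gm28635 and Ulk4, which share exons with Ctnnd1 and Ctnnb1, moved with the kind: Gm28635 had a count in 3 of 82 columns of the low kind, 87 of 88 of the middle and 67 of 67 of the high, and Ulk4 in 7, 88 and 67. Basal and simple columns can be compared within the low and within the high kind, and those values stand beside the results. Apart from 1 mesenchymal column of the low kind, basal and mesenchymal columns share no kind, so between them state and kind cannot be told apart.

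Cdh1 encodes E-cadherin, the main cadherin of epithelia, and it was carried by nearly all columns of both epithelial states and by no mesenchymal column. In basal columns the level ran from 4.32 to 1212 CPM with a median of 370.0, and 53 of 54 carried it (98.1%, interval 90.1% to 99.95%). In simple columns it ran from 1.26 to 2648 CPM with a median of 794, and 60 of 66 carried it (90.9%, 81.3% to 96.6%). In mesenchymal columns the highest value was 1.68 CPM and the median 0, and 0 of 79 carried it, which allows a share of up to 3.80%. The basal and simple ranges therefore overlap, and the mesenchymal columns lie below 10 CPM throughout. Within the low kind, 15 of 15 basal and 43 of 45 simple columns carried Cdh1, and within the high kind 38 of 39 and 13 of 15. Within the middle kind, 4 of 6 simple columns carried it against 0 of 78 mesenchymal.

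Cdh3 encodes P-cadherin, known from the basal layer and the hair placode, and it was carried by nearly all basal columns, about as many simple columns as not, and a minority of mesenchymal ones. In basal columns it ran from 0 to 1043 CPM with a median of 355, and 52 of 54 carried it (96.3%, 87.3% to 99.5%). In simple columns it ran from 0 to 917 CPM with a median of 40.3, and 36 of 66 carried it (54.5%, 41.8% to 66.9%). In mesenchymal columns the median was 0, and 16 of 79 carried it (20.3%, 12.04% to 30.8%) at 13.3 to 823 CPM, the next highest column being at 234. The simple columns thus split into those near the basal range and those near 0, and 2 of 66 lay between 5 and 20 CPM. The highest mesenchymal value, 41.1% of the Cdh3 count of that state, is the column that met both rules. Cdh3 was carried by 13 of 15 basal and 26 of 45 simple columns of the low kind, and by 39 of 39 and 7 of 15 of the high kind. Since 33 simple columns held the fibroblast collagen Col3a1 at 100 CPM or more, the share was also taken without them, and it was 54.5% again. Across the 66 simple columns Spearman's rho of Cdh3 with Col3a1 was 0.13.

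**Figure D1:**
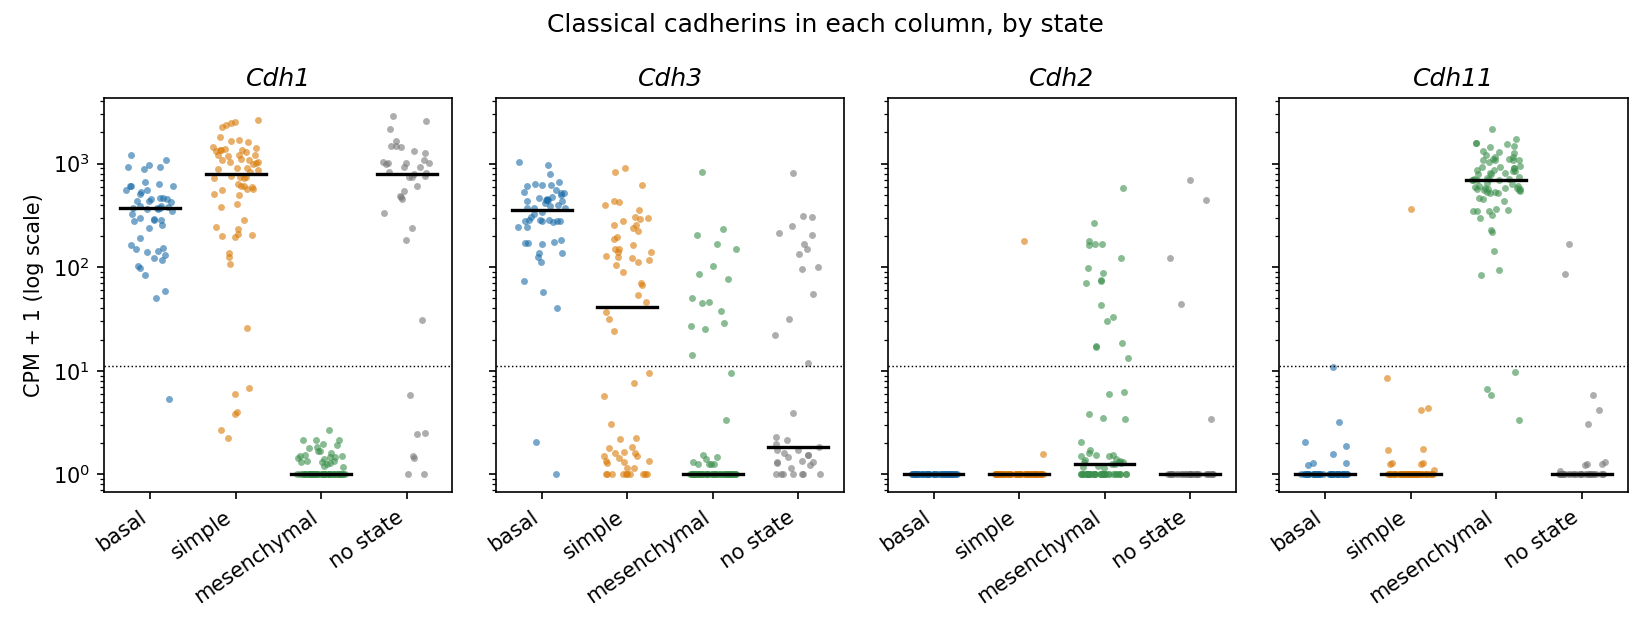
CPM plus 1 (log scale) of Cdh1, Cdh3, Cdh2 and Cdh11 in each column, by state, with 1 point a column, the median as a bar and 10 CPM as the dotted line. Cdh1 lies above the line in 53 of 54 basal and 60 of 66 simple columns and Cdh11 in 75 of 79 mesenchymal columns, while Cdh3 in simple columns splits on both sides of it.

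E-cadherin and P-cadherin are neighbours on the same strand: in GENCODE M21 on GRCm38 (mm10), Cdh3 (ENSMUSG00000061048) spans chr8:106510891-106557297 and Cdh1 (ENSMUSG00000000303) chr8:106603351-106670246, both on the plus strand, 46.1 kb apart with 2 annotated genes between. Because they so often occur in the same column, their coding sequences (2652 bases for Cdh1, 2466 for Cdh3) were compared for stretches that a read could not assign. The longest run that both share is 16 bases, and 0 runs of 50 bases are shared. It is shown in capitals with 30 bases on each side, plus strand, from chr8:106653765-106653840 in Cdh1 and chr8:106536817-106536892 in Cdh3, each window within 1 exon.
Cdh1: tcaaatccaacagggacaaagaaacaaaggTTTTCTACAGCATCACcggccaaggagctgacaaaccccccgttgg
Cdh3: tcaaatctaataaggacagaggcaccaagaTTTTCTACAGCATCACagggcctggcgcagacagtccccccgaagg

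The lower-case flanks of that run differ at many places. How reads were assigned between the genes was not tested. Fractional values, whose origin is not stated in the sources, were rare in both. A fraction was carried by 1 of 182 nonzero Cdh1 values and 1 of 166 nonzero Cdh3 values, against 23.2% over all genes. No exon of either gene overlaps an exon of another annotated gene.

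Both genes were carried together in 51 of 54 basal columns (94.4%, 84.6% to 98.8%) and in 33 of 66 simple columns (50%, 37.4% to 62.6%). So a basal column as a rule carried Cdh1 and Cdh3 RNA at the same time. Of the simple columns 33 carried both, 27 Cdh1 without Cdh3, 3 Cdh3 without Cdh1 and 3 none of the 4 cadherins. Within the low kind both were carried by 13 of 15 basal and 24 of 45 simple columns, and within the high kind by 38 of 39 and 6 of 15.

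Their balance also differed by state. To compare genes of different length, CPM was divided by the length of the merged exons in kb. In the summed basal columns Cdh1 stood at 88.0 and Cdh3 at 82.6 CPM per kb, and in the summed simple columns at 187 and 26.6. Cdh3 was the highest of the 4 cadherins per kb in 31 of 54 basal columns and Cdh1 in 23, whereas in simple columns Cdh1 led in 58 of 66 and Cdh3 in 8. In the 51 basal columns with both, the log2 ratio of Cdh3 over Cdh1 per kb had a median of 0.25 and ran from -4.50 to 3.31. In the 33 simple columns with both, the median was -2.54, from -5.81 to 2.25. Near parity in the basal state thus covers a wide spread from column to column, and Spearman's rho between Cdh1 and Cdh3 was -0.33 over the 54 basal columns and -0.01 over the 66 simple ones, as a description of columns that differ in depth and kind.

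**Figure D2:**
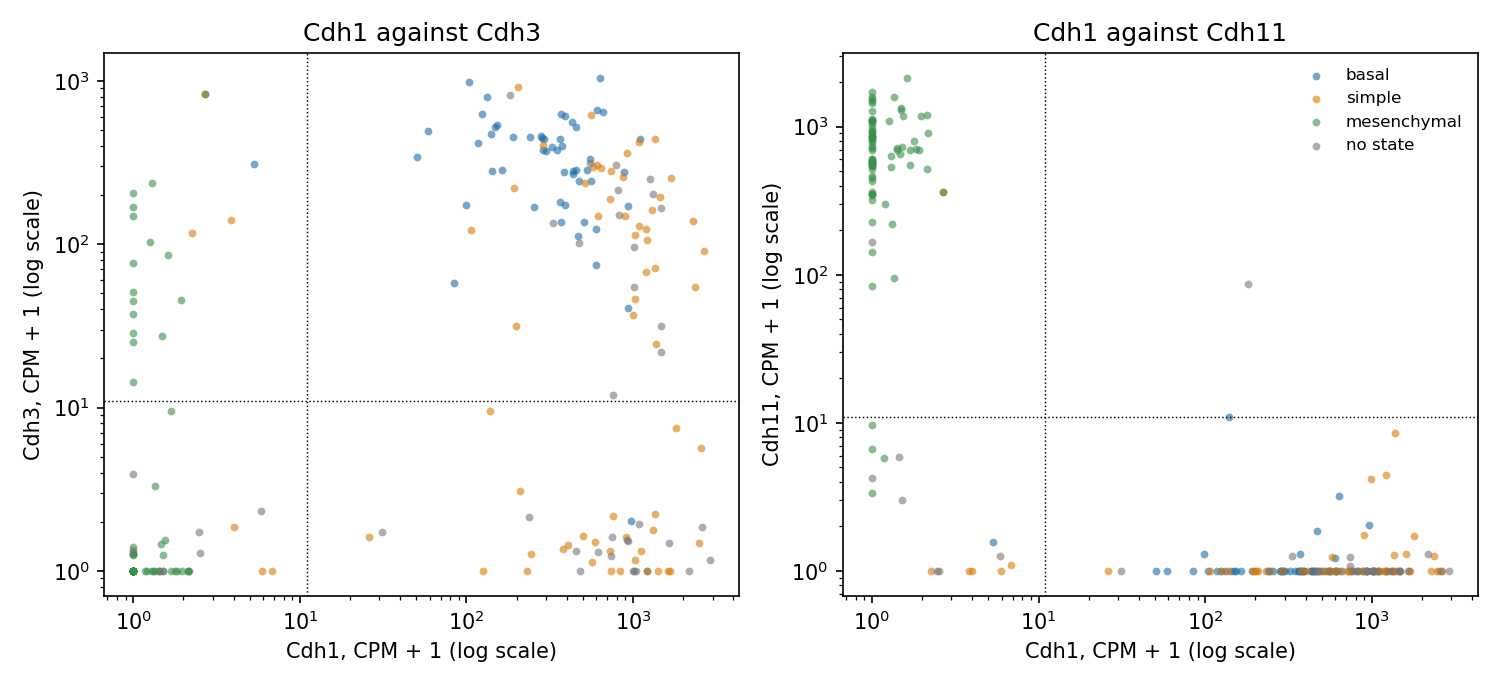
Cdh1 against Cdh3 (left) and against Cdh11 (right) in each of the 237 columns, as CPM plus 1 on log scales, coloured by state, with 10 CPM as dotted lines. The upper right corner holds 99 columns for Cdh1 with Cdh3 and 1 column for Cdh1 with Cdh11.

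The basal and simple columns outside the pattern are few. Of the 3 basal columns without both, 1 held Cdh3 at 306 CPM with Cdh1 at 4.32. The other pair held Cdh1 at 1212 and 964 CPM with Cdh3 at 0 and 1.03, and these had Krt1, a keratin of the suprabasal layers, at 1437 and 4144 CPM, against a median of 7.51 over the 54 basal columns. The suprabasal list of 3 genes summed to 293 CPM over the basal columns, all 3 at 10 CPM or more, with Krt10 the most abundant. Of the 6 simple columns without Cdh1, 1 is the column that met both rules, 2 carried Cdh3 alone at 140.4 and 115 CPM, and 3 carried no cadherin of the 4. These last had the alpha-globin gene Hba-a1 at 275066, 1205 and 17.97 CPM. The red cell pair Hba-a1 and Hbb-bt summed to 10930 CPM over the simple columns, most of it from the column at 275066 CPM, and 15 simple columns had Hba-a1 at 10 CPM or more. Without these 15, the share of simple columns with Cdh1 was 94.1% and with Cdh3 56.9%.

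Cdh11 encodes cadherin-11, a type II cadherin of mesenchymal cells, and it was carried by nearly all mesenchymal columns. Its level there ran from 2.35 to 2139 CPM with a median of 695, and 75 of 79 columns carried it (94.9%, 87.5% to 98.6%). In basal columns the median was 0 and the highest value 9.97, just under the limit, and 0 of 54 carried it, which allows a share of up to 5.56%. In simple columns 1 of 66 carried it (1.52%, 0.0384% to 8.16%), at 361 CPM, and it is the column that met both rules, which holds 96.8% of the Cdh11 count of the simple state. So Cdh11 separates the mesenchymal from the epithelial columns with little overlap. Within the middle kind it was carried by 74 of 78 mesenchymal and 0 of 6 simple columns. Per kb the mesenchymal sum of Cdh11 was 81.5 CPM, close to that of Cdh1 and of Cdh3 in basal columns, and it led the 4 cadherins in 74 of 79 columns.

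Cdh2 encodes N-cadherin, of neural, muscle and mesenchymal cells. It was at 0 in every basal column, and the summed count of 0 allows up to 0.00649 CPM. In simple columns 2 of 66 had a count, and the column that met both rules, at 179 CPM, holds 99.8% of it. In mesenchymal columns it ran from 0 to 584 CPM with a median of 0.253, and 19 of 79 carried it (24.1%, 15.1% to 34.98%), with 5 columns between 5 and 20 CPM. N-cadherin was thus carried by a minority of mesenchymal columns, 16 of them together with Cdh11, and it led the 4 cadherins per kb in 4 of 79. The summed level was 31.3 CPM (30.8 to 31.8). Over the basal sum, with 1 CPM added to both, the log2 ratio was 5.01, and with the median of the columns 0.33. Without the column at 584 CPM the sum was 22.5 CPM.

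Some of the columns with Cdh2 held markers of muscle. The muscle list (Des, Myog, Myod1 and Acta1) summed to 143 CPM in the mesenchymal columns, with 3 of 4 genes at 10 CPM or more, Des the most abundant and none at 0. Myod1, a transcription factor of the muscle lineage, was at 149 to 1188 CPM in 6 of 79 mesenchymal columns, and Cdh2 was carried by 6 of these 6 at 17.4 to 167 CPM and by 13 of the other 73. Cdh11 went the opposite way, carried by 3 of the 6 and by 72 of the 73. The 6 columns also held Cdh15, the muscle cadherin, at 624 to 1411 CPM, and Pdgfra at 1.24 CPM or less. Their Col1a1 was at 100.6 to 414 CPM, near the limit of 100 CPM, against a median of 13847 CPM in the mesenchymal state. A further mesenchymal column held Cdh15 at 347 and Des at 181 CPM with Myod1 and Cdh2 at 0 and Cdh11 at 4.79. Without the 6 columns Cdh2 was carried by 17.8% of mesenchymal columns and Cdh11 by 98.6%. The 4 columns in no state that carried Cdh2 missed the mesenchymal rule by Col1a1 alone, at 53.3 to 97.3 CPM. The mesenchymal Cdh2 column at 584 CPM held Col1a1 at 188 CPM and the pericyte gene Rgs5 at 783 CPM. No other mesenchymal column carried Rgs5. The pericyte list of 3 genes summed to 288 CPM, all at 10 CPM or more, with Pdgfrb the most abundant. The part of these cell types in the Cdh2 level beyond these counts was not tested.

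More than 1 of the 4 cadherins was carried by 51 of 54 basal columns, 34 of 66 simple columns (51.5%, 38.9% to 64.01%) and 25 of 79 mesenchymal columns (31.6%, 21.6% to 43.1%), and by 125 of all 237. In the mesenchymal columns the pairs were Cdh3 with Cdh11 in 16 and Cdh2 with Cdh11 in 16, each 20.3% (12.04% to 30.8%), and 7 columns, counted in both, carried all of Cdh3, Cdh2 and Cdh11. Cdh11 alone was carried by 50. Each of the 16 mesenchymal columns with P-cadherin also carried cadherin-11, which 94.9% of all mesenchymal columns carried. Leaving out the column that met both rules, each of the pairs made up 19.2%. The shares depend on the carrying level: at 50 CPM they were 10.1% for Cdh3 with Cdh11 and 11.4% for Cdh2 with Cdh11, and at 1 CPM the latter was 31.6%.

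Across the boundary between the epithelial and the mesenchymal cadherins, pairs were almost absent. Cdh1 was carried by 145 columns and Cdh2 by 23, and 0 of 237 carried both, which allows a share of up to 1.27%. Cdh1 and Cdh11, carried by 145 and 77 columns, met in 1 of 237 (0.422%, 0.0107% to 2.33%), or in 4.64% of columns with 1 CPM as the carrying level. That column is in no state and held Cdh1 at 180.3, Cdh3 at 816 and Cdh11 at 85.3 CPM with Krt5 at 3743 and Krt8 at 289. The column that met both the simple and the mesenchymal rule carried Cdh3 at 823, Cdh2 at 179 and Cdh11 at 361 CPM but had Cdh1 at 1.68. Doublets, wells with more than 1 cell, were neither called nor removed here, and their part in these columns was not tested. E-cadherin and the mesenchymal cadherins were therefore carried in separate columns with 1 exception at 10 CPM, whereas P-cadherin occurred on both sides.

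**Figure D3:**
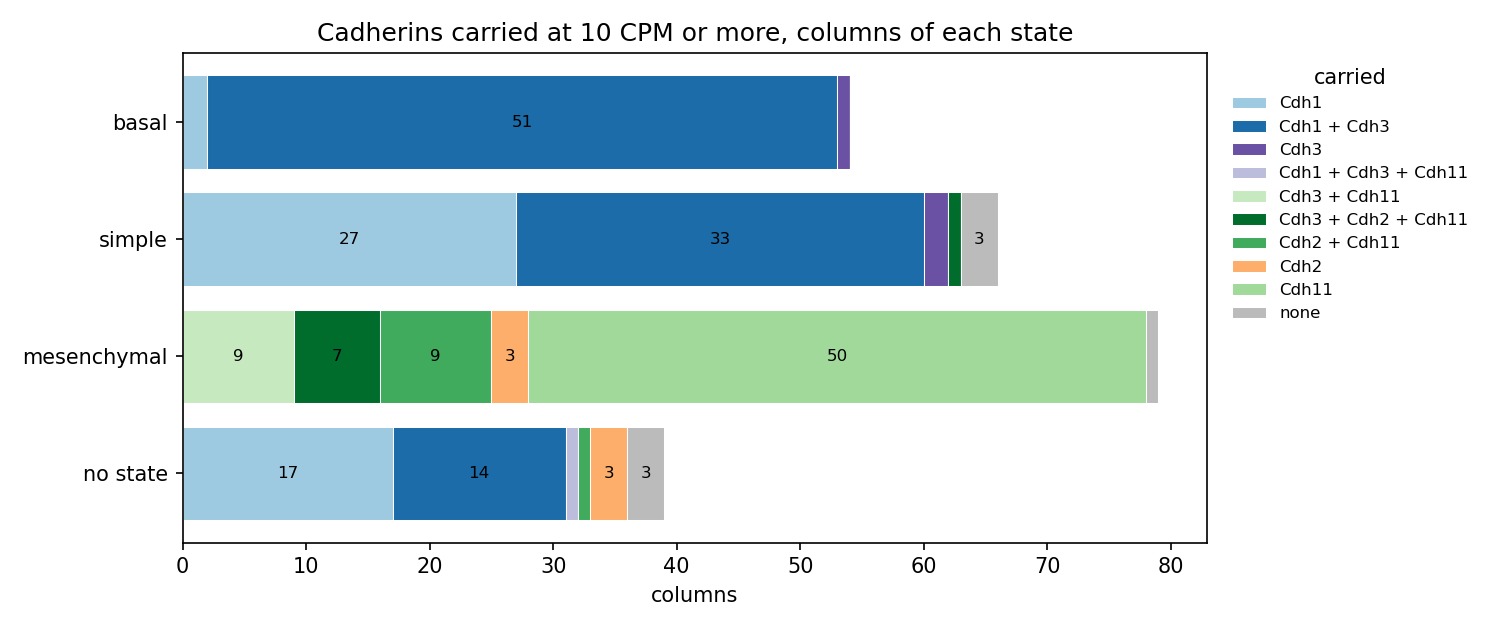
Number of columns of each state by the combination of Cdh1, Cdh3, Cdh2 and Cdh11 carried at 10 CPM or more. The basal bar is nearly filled by Cdh1 with Cdh3 (51 of 54), the simple bar by Cdh1 with Cdh3 (33) and Cdh1 alone (27), and the mesenchymal bar by Cdh11 alone (50 of 79).

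The other 2 cadherins lie elsewhere in the genome: Cdh11 (ENSMUSG00000031673) at chr8:102632095-102785642 on the minus strand and Cdh2 (ENSMUSG00000024304) on chromosome 18. The longest run of bases that the coding sequence of Cdh2 shares is 26 with Cdh1, 23 with Cdh3 and 15 with Cdh11, and no pair of the 4 shares a run of 50. Fractions occurred in 0 of 49 nonzero Cdh2 values and in 20 of 108 nonzero Cdh11 values.

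Ctnna1 encodes alpha-E-catenin, the link from the junction to actin in epithelia and most other cells, and it was carried in all 3 states. Its level ran from 55.01 to 699 CPM in basal columns (median 281), from 1.96 to 825 in simple columns (median 443) and from 0.694 to 527 in mesenchymal columns (median 175). The summed levels were 302 CPM (301 to 304), 454 CPM (452 to 455) and 184 CPM (183 to 185). The order simple, basal, mesenchymal lies outside the counting intervals, but the ranges over columns overlap throughout. It was carried by 54 of 54 basal, 64 of 66 simple and 75 of 79 mesenchymal columns. The simple over basal ratio on the log2 scale was 0.50 in the low kind and 0.89 in the high kind.

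Ctnna2 encodes alpha-N-catenin, the form best known from neurons, and it was carried by few columns outside the mesenchymal state. It was carried by 1 of 54 basal, 3 of 66 simple (4.55%, 0.947% to 12.7%) and 22 of 79 mesenchymal columns (27.8%, 18.3% to 39.1%). The 22 mesenchymal columns held it at 22.03 to 382 CPM with a median of 92.6, and 22 of 22 carried Cdh11 and 1 carried Cdh2. Of all 79 mesenchymal columns, 94.9% carried Cdh11 and 24.1% Cdh2, and the difference from these shares was not tested. In the simple state 1 column at 498 CPM holds 47.8% of the count, and without it the sum fell from 12.7 to 6.69 CPM. Of 6 neural markers, 1 (Stmn2) reached 10 CPM in the mesenchymal sum (16.9 CPM together, Elavl3 at 0) and none in the basal (2.87 CPM, Sox2 the most abundant, Dcx and Stmn2 at 0) or simple sum (3.65 CPM, Sox2 the most abundant, none at 0).

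Ctnnb1 encodes beta-catenin, which binds the cadherin tail and also carries the Wnt signal to the nucleus, and it was high in all 3 states. It ran from 313 to 3974 CPM in basal columns (median 976), from 0.885 to 1944 in simple columns (median 481) and from 68.1 to 2036 in mesenchymal columns (median 503). The summed levels were 1169 CPM (1166 to 1172), 574 CPM (572 to 576) and 584 CPM (582 to 586). Basal columns thus held about double the level of the other states by sum, with overlapping ranges, and all 54 basal and all 79 mesenchymal columns carried it, with 61 of 66 simple columns. The simple over basal log2 ratio was -1.01 in the low and -1.01 in the high kind. Of the merged exons of Ctnnb1, 14.6% overlap Ulk4 on the opposite strand, and 135 of 237 Ctnnb1 values carried a fraction. Whether the counting used the strand is not stated. Over the 54 basal columns Spearman's rho of Ctnnb1 was 0.50 with Cdh3 and -0.31 with Cdh1, and over the 66 simple columns 0.24 and 0.13.

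Ctnnd1 encodes p120-catenin, which binds the cadherin near the membrane and keeps it there. Its median was 43.3 CPM in basal columns (0.257 to 161), 25.2 in simple columns (0 to 239) and 43.7 in mesenchymal columns (0 to 192), and the sums were 53.7, 48.9 and 47.5 CPM. These levels followed the kind of column more than the state. In basal columns the sum was 15.6 CPM in the low and 63.6 CPM in the high kind, and in simple columns 20.04 and 93.1, a log2 difference between kinds of 1.96 and 2.16. Of the merged exons of Ctnnd1, 61.2% are shared on the same strand with Gm28635, and Spearman's rho of both over the 237 columns was 0.81. A read in the shared exons belongs to both genes by position, so the Ctnnd1 level cannot be told apart from how such reads were counted. For the other catenins the log2 differences between the high and low kind were smaller: in basal columns 0.04 for Ctnna1, 0.73 for Ctnna2 and 0.09 for Ctnnb1, and in simple columns 0.43, -0.18 and 0.09.

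**Figure D4:**
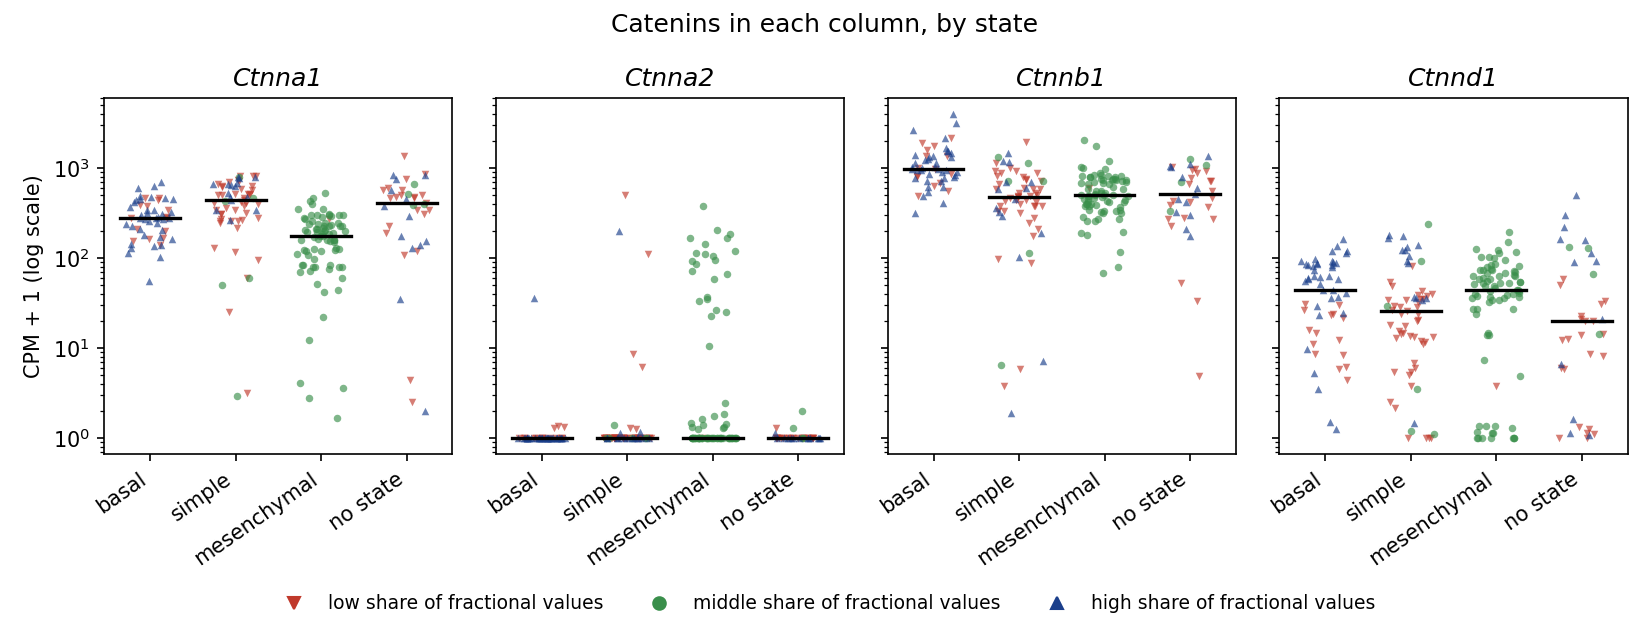
CPM plus 1 (log scale) of Ctnna1, Ctnna2, Ctnnb1 and Ctnnd1 in each column, by state, with the median as a bar and the marker showing the share of fractional values (low, middle or high kind). Ctnnb1 is highest in the basal columns (median 976 CPM), and Ctnnd1 within the basal and simple states lies lower in the low kind than in the high kind.

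The catenin genes lie on separate chromosomes. Ctnna2 (ENSMUSG00000063063) spans chr6:76881637-77979699 on the minus strand, Ctnnb1 (ENSMUSG00000006932) chr9:120929216-120960507 on the plus strand, Ctnnd1 (ENSMUSG00000034101) chr2:84600071-84650765 on the minus strand, and Ctnna1 (ENSMUSG00000037815) is on chromosome 18 with 1.48% of its exons shared with Lrrtm2. Per kb of exon, beta-catenin was the most abundant of the 4 catenins in the basal sum at 225 CPM, before Ctnna1 at 47.1, Ctnnd1 at 7.33 and Ctnna2 at 0.0896. In the simple sum Ctnnb1 stood at 110.5, Ctnna1 at 70.6, Ctnnd1 at 6.68 and Ctnna2 at 1.82, and in the mesenchymal sum at 112, 28.6, 6.49 and 4.31. The order was the same in the 3 states.

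From basal to simple columns E-cadherin stood higher and P-cadherin and beta-catenin lower, each by less than 4-fold in the summed counts. A gene was counted as past 4-fold by the ratio of CPM of summed counts, with 1 CPM added to both, among genes at 10 CPM or more in either state. Of the members, 6 of 8 reached that level, and 1 was past 4-fold higher and 0 lower, where 5.77% of 10762 genes were higher and 3.58% lower. The log2 ratio, simple over basal, was 1.09 for Cdh1, -1.63 for Cdh3, 0.58 for Ctnna1, -1.03 for Ctnnb1 and -0.13 for Ctnnd1. The member past 4-fold was Ctnna2 at 3.07, but it passed the level through the simple sum alone, so that it had to differ. Leaving out 1 column at a time gave 2.24 to 3.75, and in 2 cases the simple sum fell under 10 CPM, so that Ctnna2 was no longer tested. With the median of the columns the ratio was 0. Within the low and the high kind Cdh1 was at 0.98 and 0.99, Ctnna2 at 3.87 and 2.96, and Ctnnd1 at 0.34 and 0.54, opposite in sign to its ratio over all columns. Cdh3 was at -1.14 within the low kind and at -2.33, past 4-fold, within the high kind, and at -3.11, past 4-fold, with the median of the columns in place of the sum. Cdh2 and Cdh11 stayed under 10 CPM in both sums and were not tested, at 2.26 and 4.69 CPM in simple columns (log2 ratio of Cdh11 2.21), and without the column that met both rules at 0.00357 and 0.154.

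From basal to mesenchymal columns Cdh1 and Cdh3 stood lower and Cdh11 and Cdh2 higher in the summed counts. Of 8 members, all of which passed the level, 3 were past 4-fold higher and 2 lower, where 9.64% of 10970 genes were higher and 6.34% lower. Cdh11 went from 0.229 to 726 CPM (log2 ratio 9.21), Cdh2 from 0 to 31.3 and Ctnna2 from 0.623 to 30.0 (4.25). For Ctnna2, 1 basal column at 35.3 CPM held 97.9% of the basal count. Without it the basal sum was 0.0132 CPM and the ratio 4.93. Cdh1 went from 403 to 0.202 CPM (-8.39) and Cdh3 from 362 to 29.9 (-3.56), or -4.27 without the column that met both rules. The catenins Ctnna1 (-0.71), Ctnnb1 (from 1169 to 584 CPM) and Ctnnd1 (-0.17) were not past 4-fold. Cdh11, Cdh2 and Ctnna2 passed the level only through the mesenchymal sum, and Cdh1 only through the basal one, so that such genes had to differ. With the median of the columns in place of the sum, Cdh2 (0.33) and Ctnna2 (0) were no longer past 4-fold.

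From simple to mesenchymal columns 2 of 8 members were past 4-fold higher and 1 lower, where 8.85% of 11237 genes were higher and 9.16% lower. Cdh11 (from 4.69 to 726 CPM) and Cdh2 (from 2.26 to 31.3 CPM, log2 ratio 3.31) stood higher and Cdh1 (-9.48) lower in mesenchymal columns. Without the column that met both rules the log2 ratios were 9.31 for Cdh11 and 4.90 for Cdh2. Cdh3 was at -1.93 and so just inside 4-fold, and leaving out 1 column at a time brought it past 4-fold in 5 of 144 cases, with -2.53 as the lowest value, from the column that met both rules. It was also past 4-fold with the mean (-2.20) or the median (-5.37) of the columns, and without the simple columns with Col3a1 (-2.50) or with Hba-a1 (-2.21). Ctnna1 was at -1.30, Ctnna2 at 1.18 and, without the simple column at 498 CPM, 2.01 and past 4-fold, Ctnnb1 at 0.03 and Ctnnd1 at -0.04. Cdh11, Cdh2 and Cdh1 each passed the level through 1 state alone, so that they had to differ, and with the median of the columns Cdh2 (0.33) was not past 4-fold. The 3 comparisons share their states, so these counts are not independent of each other.

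The 16 paired cells, of embryo WT01, carry the labels basal layer (11), K17 high (4) and intermediate layer (1). They put a label on the basal pattern: each of the 15 cells of the basal layer and K17 high groups carried Cdh1 and Cdh3, met the basal rule and had Cdh2 and Ctnna2 at 0. In the basal layer cells Cdh1 ran from 58.1 to 602 CPM (median 288) and Cdh3 from 73.4 to 976 (median 374). In the K17 high cells, labelled for a keratin of periderm and hair follicle, Cdh1 was at 283, 324, 662 and 123 CPM and Cdh3 at 448, 393, 641 and 621. The ranges of the groups overlap for both genes. The balance turned from cell to cell, since 1 basal layer cell held Cdh1 at 602 with Cdh3 at 73.4 CPM, and another held 102 with 976. Cdh11 reached 9.97 CPM in 1 basal layer cell. The intermediate layer cell held Cdh1 at 739.7 CPM and Cdh3 at 0.243, with Krt1 at 13862 CPM and Krt14 at 12.9, and met no state rule.

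**Figure D5:**
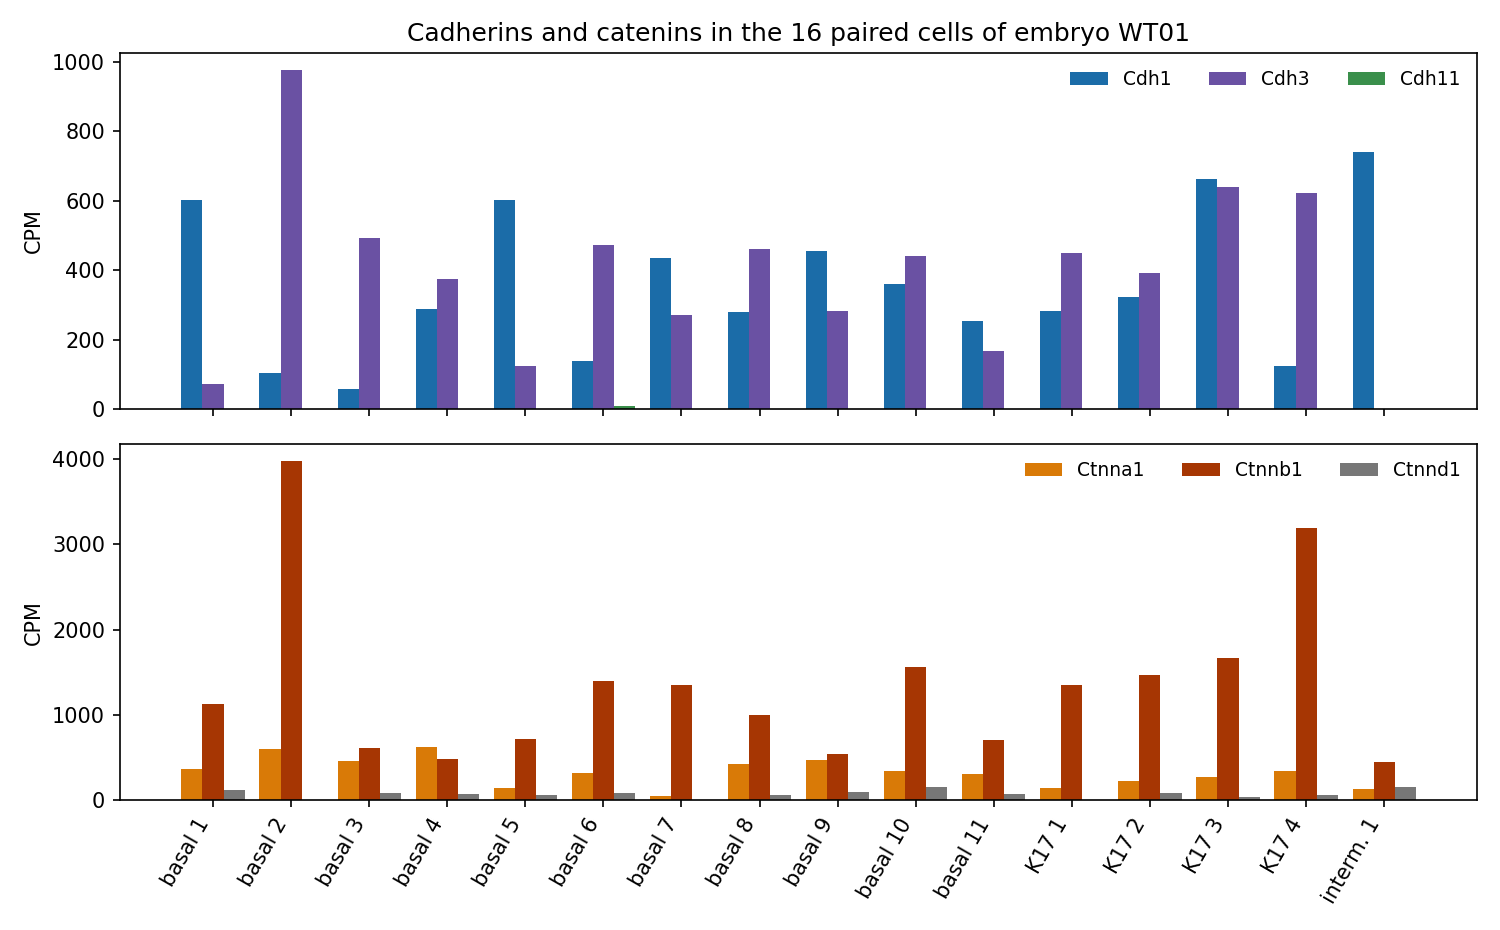
CPM of Cdh1, Cdh3 and Cdh11 (top) and of Ctnna1, Ctnnb1 and Ctnnd1 (bottom) in each of the 16 paired cells of embryo WT01, by label (11 basal layer, 4 K17 high, 1 intermediate layer). Bars of Cdh1 and Cdh3 stand side by side in 15 cells, and Cdh3 is at 0.243 CPM in the intermediate layer cell.

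The catenins of the paired cells covered similar ranges in both groups. Ctnna1 ran from 55.01 to 629.8 CPM in basal layer cells and from 139 to 341 in K17 high cells, Ctnnb1 from 486 to 3974 and from 1345 to 3196, and Ctnnd1 from 0.257 to 161 and from 4.37 to 82.7. None of the groups is apart from the other in these genes. Of 5 members at 10 CPM or more, 0 were past 4-fold, where 5.56% of 10605 genes were higher and 6.80% lower in K17 high cells. The log2 ratios were 0.20 for Cdh1, 0.51 for Cdh3, -0.62 for Ctnna1, 0.63 for Ctnnb1 and -0.70 for Ctnnd1. With each cell left out in turn Cdh1 ran from -0.40 to 0.44, so its sign rests on single cells. Trp63 was at 443 CPM in the summed basal layer cells, 737 in the K17 high cells and 273 in the intermediate layer cell.

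Other proteins of the adherens junction were taken as a list of 20 genes. From basal to simple columns 3 of 17 at the level were past 4-fold higher and 1 lower (5.77% and 3.58% of all genes tested), with a median log2 ratio of 0.56 against 0.04 over all genes tested. Of the nectins, adhesion proteins that sit beside the cadherins, Nectin3 was higher in simple columns at 79.0 against 2.82 CPM (log2 ratio 4.39) and Nectin4 at 322 against 56.7 CPM (2.48, and 3.13 without 1 column), as was Ctnnd2, a relative of p120-catenin, at 25.3 against 4.57 CPM (2.24). Nectin3 and Ctnnd2 passed the level through the simple sum alone and so had to differ. Ajuba, an actin-linked junction protein, was lower at 131 against 570.1 CPM (-2.12), while Ctnnal1 (-1.11) and Pkp4 (-1.02) were not past 4-fold. From basal to mesenchymal columns 0 of 16 were higher and 6 lower (9.64% and 6.34% of all genes, median -1.62 against -0.26), among them Nectin4 (-5.76, and -5.11 without 1 column), Plekha7, which links p120-catenin to microtubules (-4.56), and Jup, which encodes plakoglobin, the close relative of beta-catenin (-4.18). Nectin4, Plekha7, Pkp4 and Ctnnal1, 4 of the 6, passed the level through the basal sum alone and so had to differ. Shroom3 (-1.91) and Afdn (-1.80), not among the 6, were past 4-fold with 1 column left out in 6 and 1 of 133 cases. Jup went from 632 CPM in basal and 932 in simple columns to 33.8 in mesenchymal columns, unlike Ctnnb1. The highest ratios were those of Nectin3 (1.53), Nectin2 (0.37) and Vezt (0.33). From simple to mesenchymal columns 0 of 17 were higher and 9 lower (8.85% and 9.16% of all genes, median -2.44 against -0.24), with Nectin4 (-8.25), Jup (-4.74) and Ctnnd2 (-4.64) the lowest, and 6 of the 9 passed the level through the simple sum alone. Ajuba, at -1.98 and not among the 9, was past 4-fold with 1 column left out in 19 of 144 cases, down to -2.14. In K17 high against basal layer cells 1 of 15 was higher, Ctnnd2 (2.19), and 0 lower (5.56% and 6.80% of all genes), and it passed the level through the K17 high cells alone.

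Of 18 other cadherins, few reached 10 CPM in any state's sum. From basal to simple columns 1 of 4 was past 4-fold higher and 1 lower (5.77% and 3.58% of all genes): Cdh6, a type II cadherin, at 66.7 against 0.0389 CPM (6.03) and Cdh4, R-cadherin, at 0.0176 against 28.7 CPM (-4.87), while Cdh24 (1.23) and Cdh13 (-1.74) were not past it. Leaving out 1 column brought Cdh24 to -0.02 and Cdh13 to -3.40. From basal to mesenchymal columns 2 of 5 were higher and 0 lower (9.64% and 6.34% of all genes), Cdh15 at 75.4 CPM (6.25) and Cdh6 at 60.3 CPM (5.88), with Cdh13 (-1.09), Cdh4 (-1.07, and -1.82 to -0.57 with 1 column left out) and Cdh24 (-1.01) not past 4-fold. From simple to mesenchymal columns 2 of 4 were higher, Cdh15 (4.78, and 6.25 without 1 column) and Cdh4 (3.79, and 3.05 without 1 column, where its sum fell under 10 CPM), and 1 lower, Cdh24 (-2.24), which without 1 column was at -0.99, where 8.85% and 9.16% of all genes were higher and lower, and Cdh6 was at -0.14. Each of the other cadherins past 4-fold in these 3 comparisons passed the level through 1 state alone and so had to differ. Cdh6 was carried outside the basal state, by 21 of 66 simple, 31 of 79 mesenchymal and 0 of 54 basal columns. Cdh15 was carried by only 7 of 79 mesenchymal columns. It was at 624 to 1411 CPM in the 6 with Myod1 and had a median of 0.269 CPM in the other 73, so its mesenchymal sum rests on few columns. In the paired cells 0 of 2 were past 4-fold (5.56% of all genes higher and 6.80% lower), Cdh24 (1.32) and Cdh4 (-0.92). Cdh5, the cadherin of endothelium, was carried by 0 of 237 columns.

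A further list of 11 genes held repressors of E-cadherin and epithelial factors. From basal to mesenchymal columns 5 of 11 were past 4-fold higher and 5 lower (9.64% and 6.34% of all genes): the repressors Zeb2 (8.19) and Zeb1 (7.24) stood higher, as did Twist2, Twist1 and Snai1, which were at 0 in the basal columns and at 196, 15.4 and 14.3 CPM in the mesenchymal ones, and the epithelial factors Esrp1 (-6.45), Grhl2 (-6.43), Esrp2 (-6.38), Ovol2 (-4.31) and Ovol1 (-4.20, and -3.57 without 1 column) lower. Each of these 10 passed the level through 1 state alone, so that it had to differ. Snai2, a repressor in other tissues, was at 333 CPM in basal, 193 in mesenchymal and 0.229 in simple columns, so the basal columns held it together with Cdh1. From basal to simple columns Snai2 was the 1 of 6 past 4-fold lower (-8.09) and 0 were higher (3.58% and 5.77% of all genes), and it passed the level through the basal sum alone, with Ovol1 (1.92, and past 4-fold with 1 column left out in 6 of 120 cases, up to 2.56), Esrp2 (1.34) and Esrp1 (0.48) the highest. From simple to mesenchymal columns 6 of 11 were higher and 5 lower (8.85% and 9.16% of all genes), again each through 1 state alone, with Zeb2 (8.14), Twist2 (7.58) and Snai2 (7.30) at one end and Esrp2 (-7.72), Esrp1 (-6.93) and Grhl2 (-6.62) at the other. In K17 high against basal layer cells 1 of 6, Ovol1, was past 4-fold higher (3.66) and 0 lower (5.56% and 6.80% of all genes), through the K17 high cells alone, with Esrp1 at 1.93, Snai2 at -1.30, Grhl2 at -0.93 and Ovol2 at -0.59.

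The genes most like each cadherin over the 237 columns were taken by Spearman's rho of log2 CPM plus 1 among 12388 genes. These are columns of several states and kinds, so rho describes shared states as much as shared cells. For Cdh1 they included Cd9 (0.86), Cldn4 (0.85), Ezr (0.84) and Ppl (0.84). For Cdh3 they were the gap junction genes Gjb6 (0.72) and Gjb2 (0.69), the integrin Itga3 (0.71), Krt14 (0.68) and Ajuba (0.67). For Cdh11 they were Abca9, Twist2, Col6a1, Gm29100 and Vcam1, each at 0.91. For Cdh2 the values were lower, with Tmem121 (0.65), Nid2 (0.63), Col6a2 (0.62), Pmp22 (0.62) and Islr (0.61). Over the same columns Cdh1 was at -0.74 with Cdh11 and -0.54 with Cdh2, and Trp63 at 0.63 with Cdh1 and 0.66 with Cdh3.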

How the data were processed

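Counts of single skin cells were analysed for the classical cadherins and catenins. The authors prepared SMART-Seq HT libraries without molecular identifiers, used HISAT2 for alignment (mm10) and featureCounts for counting, with the gene models of Ensembl release 97. The labels name Trimmomatic and DESeq2 1.36.0, and the paper names another version of DESeq2. What they deposited are estimated counts by Ensembl gene identifier, not normalized. Strand and multi-mapping settings are not stated in the sources. Of the nonzero values 23.2% carry a fraction, and all were rounded to the nearest whole number. Of 55335 identifiers 55154 have a symbol.

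Of 237 columns, 16 pair with a labelled cell through the study's supplementary table, and 221 were used without a label. Exon lengths, overlaps and coordinates are from GENCODE M21 (GRCm38), not the Ensembl release 97 of the authors. Summed counts got exact Poisson and shares exact Clopper-Pearson 95% intervals. A sum or share of 0 was given the limit set by 3 counts. Log2 ratios used CPM of summed counts with a pseudocount of 1 CPM. The steps were tested on simulated data.

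Named genes are the 8 members, the 3 highest and 3 lowest ratios of each list and, per cadherin, up to 5 genes from those with the highest rho, of genes at 10 CPM or more in at least 20 columns. Others were named after their values were seen. Members and lists were chosen with earlier results of these data known. The alternatives tried were carrying levels of 1 and 50 CPM, doubled and halved state limits, columns thinned to 1000000 counts, columns of 2 states left out, mean or median CPM, a pseudocount of 0.1 CPM, no filter, fractional counts and each paired cell left out. Splits by fractional share, leaving out columns with Col3a1, Hba-a1 or Myod1, and each column left out in turn were chosen after seeing the data. The work ran in Python 3.11.15 with scipy 1.17.1, pandas 2.3.3, matplotlib 3.10.9 and numpy 2.4.6.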

Additional observations from a re-analysis of the deposited data

How the results depend on the processing

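Of 21 shares and counts over 192 settings, 170 values lay within their interval or within 1.5 times the count, 22 moved and 0 reversed. The cause was not tested unless the setting itself gives it. With 1 CPM as the carrying level, which by construction admits more columns, Cdh1 was carried by 100% of basal and 100% of simple columns, Cdh11 by 100% of mesenchymal columns, Cdh1 with Cdh3 by 63.6% of simple columns, Cdh2 with Cdh11 by 31.6% of mesenchymal columns and Cdh1 with Cdh11 by 4.64% of all columns. With 50 CPM, Cdh3 and Cdh3 with Cdh11 were each carried by 10.1% and Cdh2 with Cdh11 by 11.4% of mesenchymal columns. Without the low kind of column, Cdh1 was carried by 81.0% of simple and Cdh3 by 100% of basal columns. In the low kind alone, Cdh1 was carried by 100% and Cdh3 by 86.7% of basal columns, and Cdh1 with Cdh11 by 0%. Without mesenchymal columns with Myod1, Cdh11 was carried by 98.6%.

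With the median of the columns, which drops genes absent from most columns, 304 genes were higher and 1879 lower in simple than basal, 1579 lower in mesenchymal than basal and 1645 higher in mesenchymal than simple columns. With no filter 993 genes were higher in simple than basal columns. In the high kind alone 760, and without simple columns with Col3a1 614, were lower.

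Of 352 member ratios under alternatives, 183 lay within their interval, 169 moved, 12 changed side of 4-fold and 0 of those past 4-fold turned direction. Ratios inside 4-fold did turn, such as Ctnnd1 in simple over basal columns (-0.13, but 0.34 in the low and 0.54 in the high kind). Cdh3 in mesenchymal over simple columns passed 4-fold lower under 5 settings (-2.20 to -5.37). With the median, Cdh3 in simple over basal columns passed 4-fold lower (-3.11), as in the high kind alone (-2.33), and Cdh2 and Ctnna2 lost their calls. With no filter Cdh11 was called higher in simple than basal columns (2.21). Leaving out each paired cell, K17 high against basal layer gave 586 to 702 genes higher and 703 to 1064 lower. No column was under 1000000 counts. Without replicates, no difference could be set against spread between embryos.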

Other observations

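The 39 columns in no state held both epithelial and other cells by their markers. In 6 of them Krt1, of the suprabasal layers, was at 2170 to 14357 CPM. Each carried Cdh1, at 482 to 1014 CPM, and 1 carried Cdh3, at 53.9 CPM, so E-cadherin was there without P-cadherin in 5, as in the intermediate layer cell, which is 1 of the 6. Krt8 and Krt5 were both at 100 CPM or more in 20 of the 39. Of the 39, 32 carried Cdh1 and 15 Cdh3 as well.

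Sox10, a transcription factor of neural crest derivatives, was at 10 CPM or more in 5 columns, all in no state, chosen after their values were seen. In 2 of these the pigment cell genes Dct (2218 and 2050 CPM) and Pmel (2490 and 8134 CPM) were high, and they carried Cdh1 at 1257 and 825 CPM and Cdh3 at 250.1 and 149 CPM. In the other 3 Dct and Pmel were at 0, and they held Cdh2 at 42.7, 691 and 441 CPM with Cdh1 at 0.509 CPM or less. Cdh19 was at 128, 233 and 234 CPM in these 3 and at 134 and 5.26 CPM in the first pair. The first pair is of the low kind and the other 3 of the middle kind by fractional share. Of 2 columns in no state with Myod1 at 10 CPM or more, 1 (585 CPM) carried Cdh2 and Cdh11, and the other (1988 CPM) carried none of the 4 cadherins.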
